A study of Danio rerio with 4 samples.

Results

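Of 31953 zebrafish gene features, 152 were counted almost only in RNA immunoprecipitation sequencing (RIP-seq). They were chosen by their raw counts, as features with at least 20 counts in each of the 2 RIP-seq libraries and at most 20 in each of the 2 RNA-seq libraries. The gap between RIP-seq and RNA-seq is therefore what chose them and is given as a description, with no test. By symbol, the 152 features comprised 1 ribosomal RNA gene, 1 spliceosomal snRNA gene, the RNase MRP RNA gene, 2 snoRNA genes, 8 histone genes, 3 other named genes, 28 features that carry only a clone name and 108 that carry no symbol. No 7SK gene was among them.

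All 4 libraries came from whole embryos at 24 h post fertilisation, with 1 library per group and no replicates. The groups were RIP-seq with the genotype label ddx39a mutant, RIP-seq with the label wild type, RNA-seq of ddx39a mutant embryos and RNA-seq of wild-type embryos. The same protocol stands beside both RIP-seq labels: mRNA for Flag-tagged ddx39a was injected into ddx39a mutant embryos at the one-cell stage, and lysates were put over anti-Flag beads. What separates the RIP-seq libraries besides their label is thus not given, and they are called here by their label. The mutant allele and the number of embryos per library are not given either, and no untagged or input RIP-seq library was analysed here. Oligo(dT) beads, which bind poly(A) tails, were part of the library protocol in all 4 cases. The stated aims were to find RNAs bound by DDX39A, a DEAD-box RNA helicase of the mRNA export pathway, and transcripts that differ in the mutants.

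Several of the named features belong to RNA classes made or used in the nucleus. Ribosomal RNA is transcribed in the nucleolus as a long precursor that RNase MRP and small nucleolar RNAs help to cut, while U2 snRNA pairs with the branch point of introns during splicing. Histone mRNAs made during DNA replication end in a stem-loop bound by the protein SLBP, not in a poly(A) tail, whereas mRNAs of the replacement histones are polyadenylated. None of these statements is a result of the counts.

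The RIP-seq libraries held 2246938 gene counts with the mutant label and 1966053 with the wild-type label, and the RNA-seq libraries held 9533101 in mutant and 9922182 in wild-type embryos. In RIP-seq 89.5% and 91.8% of alignment records were to more than 1 place, against 8.42% and 11.2% in RNA-seq (mutant before wild type in each pair), so counts of gene families rest on the parts of each copy that align uniquely. A pair of clone-named genes that are not among the 152, zgc:158463 and si:dkey-153m14.1, held 63.5% of the RIP-seq gene counts with the mutant label and 68.7% with the wild-type label. Of 2 gene IDs with the symbol DDX39A, ENSDARG00000015111 had 199 and 318 counts in RIP-seq and 706 and 3742 in RNA-seq, mutant before wild type, and ENSDARG00000006225 had 153 and 191 in RIP-seq and 2382 and 2242 in RNA-seq. The labels do not say which of these IDs is mutated. Markers of muscle (actc1b), neurons (ELAVL3), epidermis (krt4), blood (hbae3), notochord (col8a1a), yolk (apoa1b) and lens (crybb1l2) all had counts in both RNA-seq libraries, and 0 of 18 markers were at 0 in either. In such bulk samples fewer cells of a type and less RNA per cell cannot be told apart.

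The 152 features held 113301 counts in RIP-seq with the mutant label and 123032 with the wild-type label. That was 5.04% of the gene counts with the mutant label (95% exact binomial interval 5.01% to 5.07%) and 6.26% with the wild-type label (6.22% to 6.29%). Their sum in RNA-seq was 371 counts in mutant and 550 in wild-type embryos. These are shares of reads counted, not of molecules, since features were not scaled by length, and the intervals cover counting error only. When the leading pair of other genes was taken out of the total, the shares were 13.8% with the mutant label and 19.98% with the wild-type label. Most uniquely aligned RIP-seq records fell in no gene. Of all uniquely aligned records, the 152 features held 1.048% with the mutant label and 1.119% with the wild-type label. One feature, 5_8S_rRNA, carried 78.3% of the members' RIP-seq counts with the mutant label and 79.2% with the wild-type label. The other 151 features took 1.095% and 1.301% of the RIP-seq gene counts, and 0.2275% and 0.2326% of the uniquely aligned records. They had a median of 122 and 116 counts per feature. The range was 23 to 892 with the mutant label and 20 to 1532 with the wild-type label. Their counts were spread over many genes, as the 10 most abundant of these held 24.7% of the remainder with the mutant label and 29.4% with the wild-type label.

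**Figure D1:**
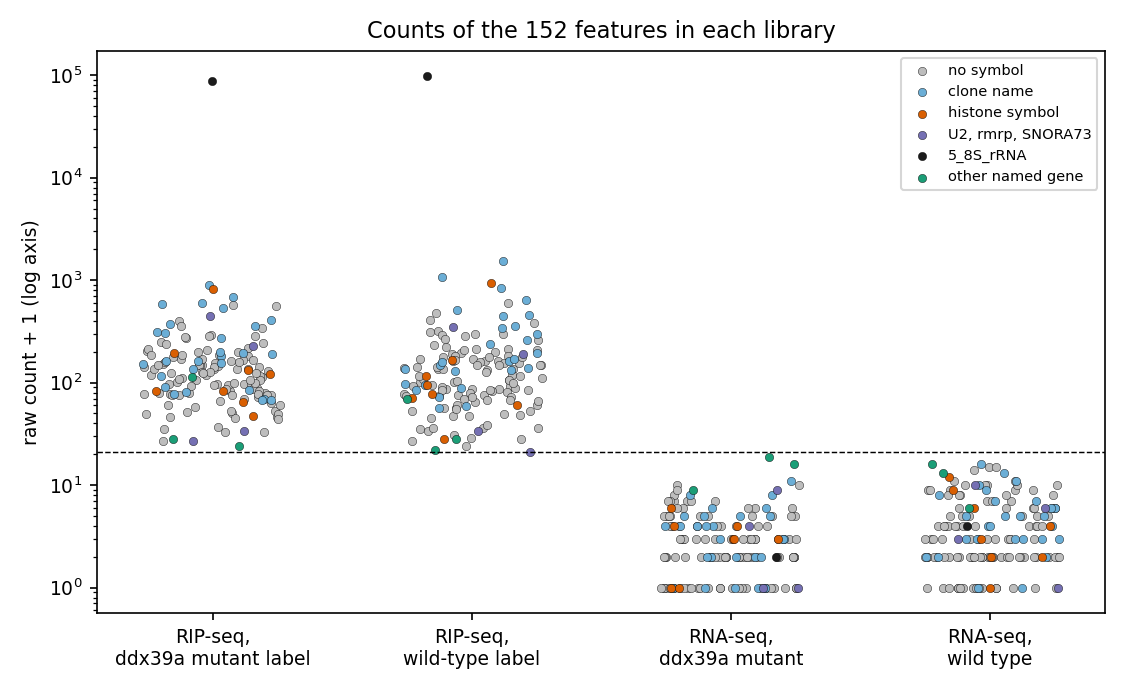
Raw count plus 1 (log axis) of each of the 152 features in the 4 libraries; each point is a feature, coloured by class, with random sideways spread, and the dashed line marks the count of 20 used by the rule. The 5_8S_rRNA points stand near 88705 and 97454 in RIP-seq, far above all other features, while in RNA-seq no feature exceeds 18 in mutant or 15 in wild-type embryos.

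**Figure D2:**
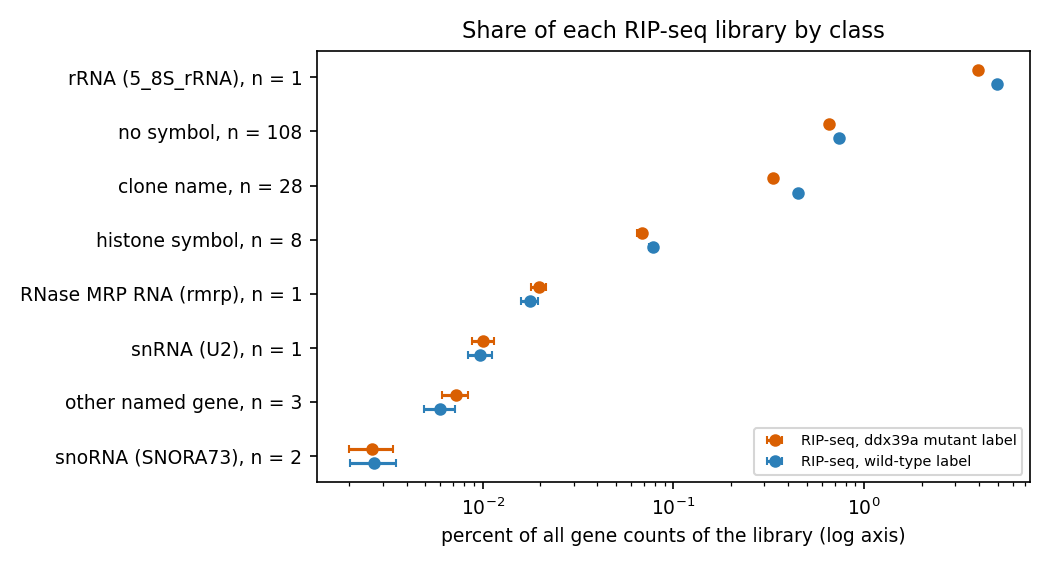
Percent of all gene counts of each RIP-seq library taken by the members of each class (log axis), with 95% exact binomial intervals and the number of members beside each class name; orange is the mutant label and blue the wild-type label. Ribosomal RNA leads at 3.95% and 4.96%, followed by features with no symbol, clone names and histone symbols.

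The ribosomal RNA class was a single gene. The symbol 5_8S_rRNA (ENSDARG00000081218) names an RNA of the large ribosomal subunit that is cut from the common precursor. It had 88705 counts in RIP-seq with the mutant label and 97454 with the wild-type label, against 1 and 3 in mutant and wild-type RNA-seq. It thus took 3.95% (3.92% to 3.97%) of the RIP-seq gene counts with the mutant label and 4.96% (4.93% to 4.99%) with the wild-type label. This was the largest share of any of the 152 features in either library. The files list 3 genes with this symbol, of which 2 had any RIP-seq count, and all but a few of their 88707 and 97459 RIP-seq counts were on this single gene. Among the 673 genes named 5S_rRNA, the other small RNA of the large subunit, 20 had a RIP-seq count, and they summed to 20 and 12 counts in RIP-seq under the mutant and wild-type labels, against 141 and 110 in mutant and wild-type RNA-seq. The 5S_rRNA genes thus had more raw counts in RNA-seq, the opposite order to 5_8S_rRNA, but the RNA-seq libraries were deeper. Only unique alignments were counted for these many copies, and the part of depth or copies in this order was not tested.

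Among spliceosomal RNAs, U2 was the sole member. Its gene ENSDARG00000082321 had 225 and 191 counts in RIP-seq under the mutant and wild-type labels, and 0 in each RNA-seq library, where 3 counts would have been a CPM (count scaled to the library total) of 0.315 in mutant and 0.302 in wild-type embryos. Its share was 0.0100% of the RIP-seq gene counts with the mutant label and 0.00971% of those with the wild-type label. The other snRNA genes stayed near 0 in RIP-seq. The 47 genes named U1, which pairs with the 5′ splice site, summed to 6 counts with the mutant label and 4 with the wild-type label. The 2 genes named U4 summed to 7 and 11, and the 8 genes named U5 to 0 and 2. The 41 genes named U6 had none in RIP-seq but 7 and 14 in mutant and wild-type RNA-seq. These symbols cover many copies and the counts hold unique alignments alone; the part of this in the low counts was not tested.

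The RNA of RNase MRP, rmrp, had 441 counts in RIP-seq with the mutant label and 347 with the wild-type label, against 0 and 2 in mutant and wild-type RNA-seq. Its share of the RIP-seq gene counts was 0.0196% with the mutant label and 0.0177% with the wild-type label. Both snoRNA members were copies of SNORA73, a box H/ACA snoRNA involved in cutting the ribosomal RNA precursor in vertebrates. ENSDARG00000080823 had 33 and 33 counts in RIP-seq and 3 and 5 in RNA-seq, and ENSDARG00000083108 had 26 and 20 in RIP-seq and 8 and 9 in RNA-seq, in each case with the mutant before the wild-type library. ENSDARG00000083108 is among the members closest to the minimum of 20. All RIP-seq values of these copies lay above all their RNA-seq values, as the rule requires.

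Several small nuclear and cytoplasmic RNAs with many RIP-seq counts were left out by the RNA-seq maximum. The gene rn7sk, for the 7SK RNA that holds the elongation factor P-TEFb inactive, had 2226 and 1938 counts in RIP-seq under the mutant and wild-type labels and 117 and 95 in mutant and wild-type RNA-seq. It took 0.0991% and 0.0986% of the RIP-seq gene counts, more than all 8 histone members together. The other gene named 7SK had 0 in every library. The signal recognition particle RNA rn7sl1 had 4069 and 3249 in RIP-seq against 389 and 644 in RNA-seq. The RNase P RNA rpph1, whose particle trims tRNA ends, had 168 and 154 in RIP-seq against 35 and 2 in RNA-seq. In all, 4139 features with at least 20 counts in each RIP-seq library exceeded 20 in RNA-seq, and 21 of these had more raw counts in each RIP-seq library than in either RNA-seq library, although the RNA-seq libraries were deeper. One of the 21 was the clone-named zgc:110216, with 975 and 1366 in RIP-seq against 20 and 82 in RNA-seq, which lies next to a member in RefSeq gene order.

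The 8 histone members took 0.0681% of the RIP-seq gene counts with the mutant label (0.0647% to 0.0716%) and 0.0783% with the wild-type label (0.0745% to 0.0823%). The most abundant was h1l1, a linker histone H1 gene, with 812 and 931 RIP-seq counts against 2 and 1 in RNA-seq, mutant before wild type. The variant gene h2ax2 had 193 and 166 in RIP-seq against 2 and 5 in RNA-seq. Of the histone symbols, h1l1 alone was within the 10 most abundant of the 152 features. The other histone members code for core histones. The H2A gene hist1h2a7 had 121 and 116 in RIP-seq against 2 and 3 in RNA-seq, and hist1h2a2 had 132 and 70 against 3 and 8. The H2A genes hist1h2a11 and hist1h2a4 had 81 and 76, and 64 and 94, in RIP-seq, and no more than 1 count in either RNA-seq library. The H3 gene h3c13a had 81 and 60 against 5 and 11, and the H2A gene hist1h2a3 had 46 and 27 against 3 and 2, so h3c13a came nearest to the RNA-seq maximum. No member carried an H4 symbol or an H2B symbol, but most members have no informative name. Histone genes are near-identical copies of one another, so the split of reads between them is uncertain.

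The files hold 25 histone symbols, and the rule split them by their RIP-seq and RNA-seq counts. Some were left out by too few RIP-seq counts, such as H2BK1, h2af1al and h1m with 0 in every library. A list of genes taken as replacement histones, a group whose mRNAs carry poly(A) tails in vertebrates, matched 10 symbols, and 0 of these were members. Whether all mRNA of each listed gene, h2ax among them, carries such a tail was not tested. The list was matched by exact symbol, so it held h2ax but not the member h2ax2, nor h2ax1 with 1918 and 2327 RNA-seq counts. The 0 therefore depends on how genes were named. The 10 listed symbols summed to 1081 and 1046 counts in RIP-seq under the mutant and wild-type labels, and to 29635 and 32863 in mutant and wild-type RNA-seq. The 8 members summed to 1530 and 1540 in RIP-seq, and to 17 and 31 in RNA-seq. RIP-seq sums of like size thus stood beside RNA-seq sums that lay far apart, which the rule itself brings about for the members. Among the replacement genes, h3f3a for histone H3.3 had 235 and 232 RIP-seq counts against 8863 and 10111 in RNA-seq. The listed h2ax was unlike it, with 248 and 215 RIP-seq counts against 70 and 251 in RNA-seq. Outside both sets, histh1l1, another linker histone gene, had 1279 and 1508 RIP-seq counts, more than any histone member, and 2017 and 3454 in RNA-seq. The H3 gene hist2h3c was left out by its RNA-seq count, with 344 and 368 in RIP-seq against 9 and 40 in RNA-seq.

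**Figure D3:**
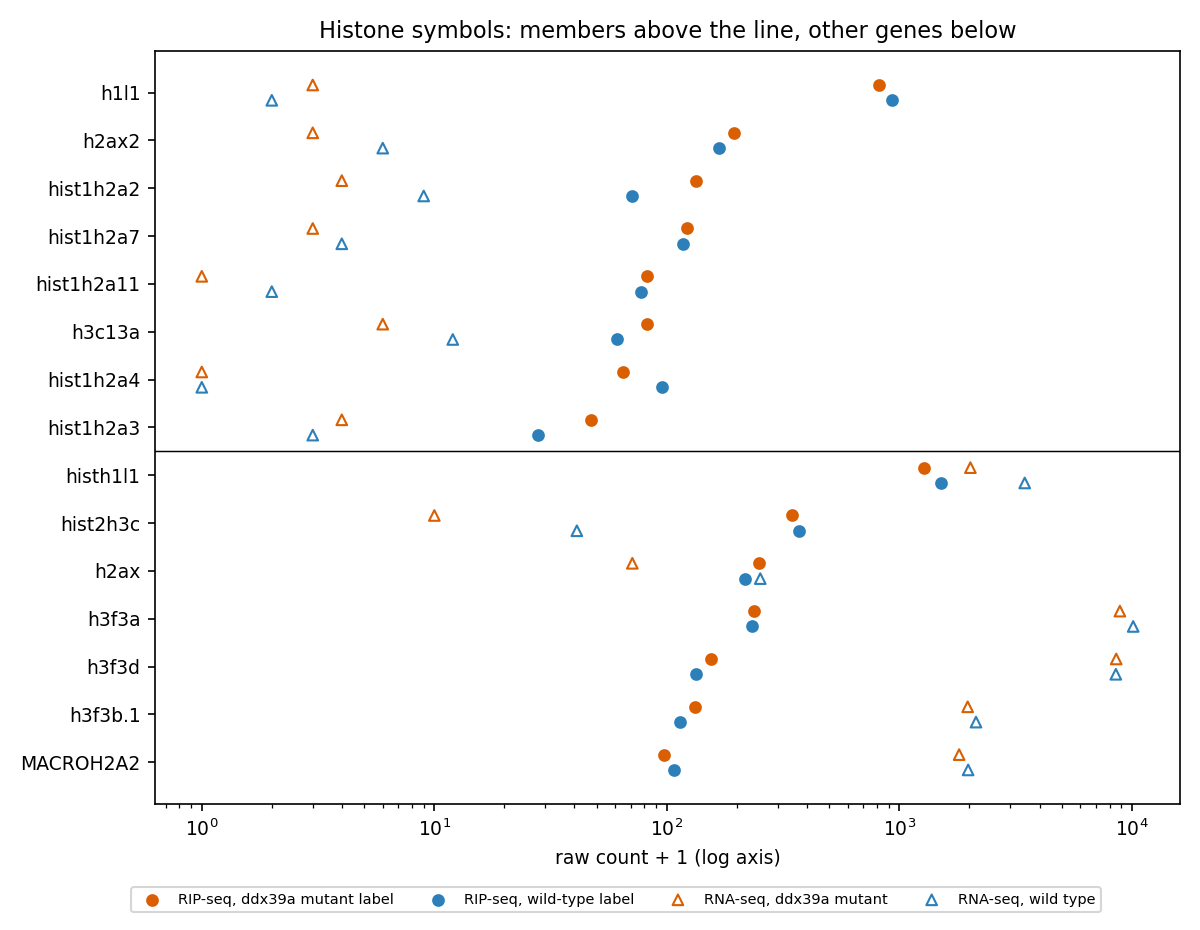
Raw count plus 1 (log axis) of each histone member and of each other histone symbol with at least 100 counts in a RIP-seq library; filled circles are RIP-seq and open triangles RNA-seq, orange the mutant and blue the wild-type library. Above the line, the 8 members have RIP-seq counts of 27 to 931 and RNA-seq counts of 0 to 11; below it, the replacement histones h3f3a, h3f3d, h3f3b.1 and MACROH2A2 have more counts in RNA-seq than in RIP-seq, while h2ax has 248 in RIP-seq and 70 in RNA-seq for the mutant libraries, and 215 and 251 for the wild-type ones.

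The unnamed features made up most of the list by number. The 28 clone-named and 108 symbol-less features together held 22179 and 23330 RIP-seq counts under the mutant and wild-type labels. That was 0.987% (0.974% to 1.00%) of the gene counts with the mutant label and 1.19% (1.17% to 1.20%) with the wild-type label, and 19.6% and 18.96% of all the members' counts. In RNA-seq they ranged from 0 to 10 counts in mutant and from 0 to 15 in wild-type embryos. Clone-named members alone took 0.333% (0.325% to 0.340%) with the mutant label and 0.452% (0.443% to 0.462%) with the wild-type label. Symbol-less members took 0.654% (0.644% to 0.665%) and 0.734% (0.722% to 0.746%).

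The most abundant unnamed features stood well above the median of the list. The clone-named si:dkey-261m9.12 had 892 and 1532 in RIP-seq under the mutant and wild-type labels, against 4 and 4 in RNA-seq. The clone-named si:ch211-113a14.18 had 680 and 1075 against 5 and 2, and si:dkey-108k21.10 had 584 and 835 against 2 and 6. All 3 had more RIP-seq counts with the wild-type label, in the smaller of the RIP-seq libraries. The clone-named si:dkey-108k21.21 had 596 and 643 against 4 and 2, si:ch211-113a14.24 had 354 and 516 against 0 and 2, and si:dkey-261m9.5 went the other way with 534 and 355 against 7 and 12. Of the symbol-less features, ENSDARG00000096596 had 575 and 604 against 5 and 13, and ENSDARG00000039547 had 562 and 480 against 6 and 8. Next in this class were ENSDARG00000076129 with 402 and 405 against 4 and 10, and ENSDARG00000093195 with 281 and 381 against 0 and 9. ENSDARG00000094744 had 356 and 312 against 4 and 7, and ENSDARG00000092395 had 343 and 297 against 0 and 1. In RIP-seq the symbol-less members ranged from 26 to 575 counts with the mutant label and from 23 to 604 with the wild-type label.

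Clone names show which members came from the same piece of cloned genomic DNA. The 21 members named si: fell on 7 of the 3036 clones that such names list. From si:dkey-23a13, 9 of 10 features were members, and they summed to 1139 and 932 RIP-seq counts against 11 and 27 in RNA-seq. From si:ch211-113a14, 5 of 5 features were members, with 1832 and 2377 against 14 and 16, and from si:dkey-261m9, 2 of 2, with 1426 and 1887 against 11 and 16. Members were 2 of 3 features from si:dkey-108k21 and 1 of 2 from si:ch73-368j24. Of the 118 clones with at least 5 features, 2 had a member, and these were si:dkey-23a13 and si:ch211-113a14. The RefSeq gene table lists names from si:dkey-23a13 as synonyms of the histone genes hist1h2a7 and hist2h3ca1, a name from si:dkey-108k21 as one of hist1h2a10 and a name from si:ch73-368j24 as one of h2ax2. The member si:ch1073-153i20.6 is itself a RefSeq synonym of hist1h2a6, so at least 1 clone-named member is a histone gene by that table.

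Many clone-named members lay near histone genes in gene order. Of the 44 members with a symbol, 26 could be placed in the RefSeq gene order, which is of another assembly than the files and is used here for neighbours alone. Of the 16 clone-named members placed, 13 had a gene with a histone symbol or synonym within 5 protein-coding genes, against 0.965% of all 27039 RefSeq protein-coding genes (261 genes). Another member lay within 5 genes for 17 of the 26 placed members. In one stretch, hist1h2a4, si:ch211-113a14.18, hist1h2a3, si:ch211-113a14.29, si:ch211-113a14.24 and si:ch211-113a14.28 lay near one another. In another, si:ch1073-159d7.11 lay next to h1l1, with hist1h2a2 nearby. The member pair zgc:173587 and zgc:163061 lay within 5 genes of each other and had no histone symbol in that distance. The 108 symbol-less members could not be placed, and none of them is given an RNA class here.

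The 3 other named members sat close to a threshold or had no known role given in the files. RRP15, known from yeast for maturation of the large ribosomal subunit, had 23 and 27 RIP-seq counts against 18 and 12 in RNA-seq. The gene rrp7a, related to a yeast factor for the small ribosomal subunit, had 27 and 21 against 15 and 5. The gene unm_sa38659, named after a mutant line, had 112 and 69 against 8 and 15. RRP15 and rrp7a were thus near both limits, with RIP-seq counts less than 10 above the minimum and the highest RNA-seq counts in mutant embryos of all members.

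Few members lay near the thresholds. There were 9 members with a lowest RIP-seq count of 20 to 29 and 4 with a highest RNA-seq count of 15 to 20. Just outside, 19 features had a lowest RIP-seq count of 10 to 19 and 9 had a highest RNA-seq count of 21 to 40. Among them another copy of SNORA73 (ENSDARG00000083400) had 17 and 20 in RIP-seq against 5 and 14 in RNA-seq, and SNORD97, a box C/D snoRNA, had 29 and 14 against 1 and 1. On the RNA-seq side, RRP9, a U3 snoRNP protein gene, had 30 and 24 against 23 and 7, and ano9a, an anoctamin gene that lies next to the member zgc:153405 in RefSeq order, had 603 and 357 against 21 and 23. The clone-named zgc:110425, next to a member in that order, had 426 and 481 against 8 and 36. Inside and outside features thus ran into one another on the RNA-seq side, and 137 of the 152 members had at least 10 times more raw counts in each RIP-seq library than in either RNA-seq library.

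The RIP-seq libraries of the 2 labels were then set against each other, a direction that the rule did not set. Counts were scaled by TMM over the pair, and a feature was called when its ratio was at least 2-fold and its 95% exact interval excluded equality. With 1 library per group there is no replicate check, so a call says that the libraries differ beyond counting error and nothing on the genotypes. Of the 152 members, 1 was called higher and 5 lower with the mutant label than with the wild-type label. Among all 15762 genes compared, 8.37% were called higher and 5.3% lower, and among the 4291 genes with at least 20 counts in each RIP-seq library 11.3% were called higher and 2.94% lower. The count of 5 lower members is thus near the background share, and the count of 1 higher member is below it.

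The member called higher was the symbol-less ENSDARG00000100210, with 169 counts for the mutant label and 68 for the wild-type label, a 2.03-fold difference (1.52 to 2.73). Its RNA-seq counts were 3 and 9. The lower members were all unnamed. The clone-named si:ch1073-159d7.11, the neighbour of h1l1, was 2.52-fold lower (1.87 to 3.43) with 67 counts for the mutant label and 138 for the wild-type label. The abundant si:dkey-261m9.12 was 2.10-fold lower (1.94 to 2.29) with 892 and 1532 counts. The symbol-less ENSDARG00000098545 was 2.34-fold lower (1.53 to 3.66) with 34 and 65 counts, ENSDARG00000091525 2.25-fold lower (1.74 to 2.91) with 96 and 176, and ENSDARG00000100279 2.15-fold lower (1.49 to 3.13) with 48 and 84. Each interval starts below 2-fold, so none of the 6 lies wholly beyond that size.

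Smaller differences ran mostly one way. The median log2 ratio of mutant over wild-type label was -0.24 over the 152 members (quartiles -0.48 and 0.05), with 108 ratios below 0 and 44 above, against -0.03 over the 4139 other genes with at least 20 counts in each RIP-seq library and -0.06 over all genes compared. With scaling by total gene counts every RIP-seq log2 ratio is 0.10 higher, and the members' median is then -0.14, with 96 below 0. The most abundant members lay lowest. The median was -0.38 for the 50 most abundant members, of which 44 lay below 0, against 0.02 for 570 other genes in the same range of counts. It was -0.29 for the next 51, against 0.15 for 640 other genes, and -0.04 for the least abundant 51, against -0.05 for 2797 other genes. The other genes were matched on counts alone, not on length or RNA class. Abundant ones lay on both sides, such as RPL19 and eef1a1l1, each at -0.41, and FAT1 at 2.77. A low ratio was thus not particular to the members. Across the 152 members the log2 counts of the libraries had Pearson's r = 0.96 and Spearman's rho = 0.92. Without 5_8S_rRNA, which lies far above the rest, the values were r = 0.94 and rho = 0.92. Across the other 4139 genes they were r = 0.83 and rho = 0.77. Most of those genes lay in the count range of the least abundant 51 members, where counting error is larger. The sets were not matched for abundance, so nothing is read from the gap between their correlations. The correlations describe features that share library and depth, and the order of members by abundance was much the same in both RIP-seq libraries.

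**Figure D4:**
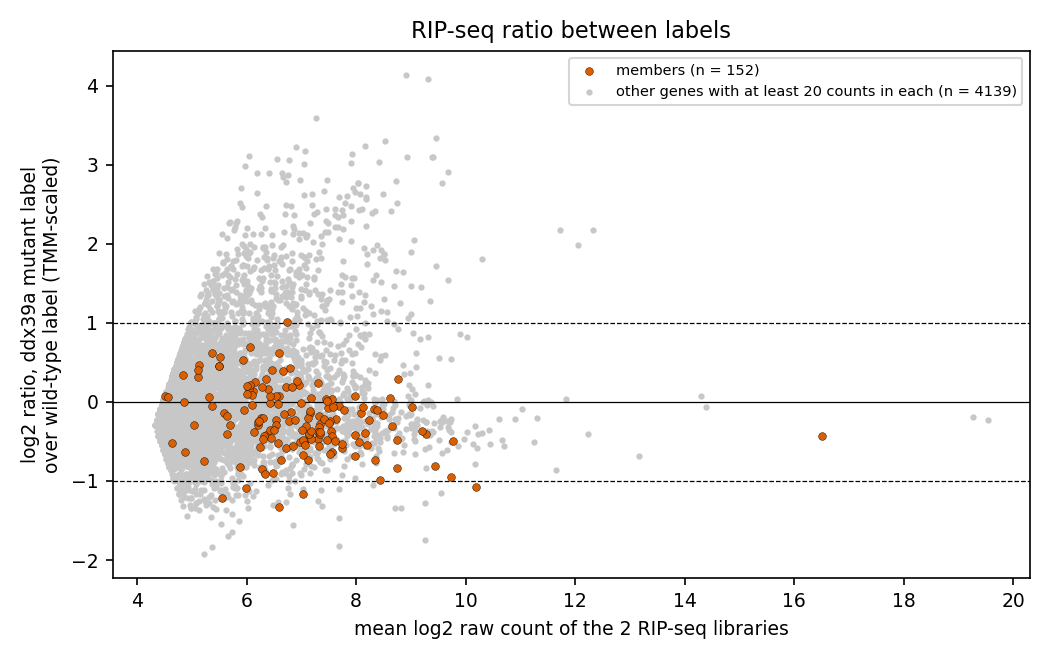
Log2 ratio of TMM-scaled counts, mutant label over wild-type label, against the mean log2 raw count of the RIP-seq libraries; orange points are the 152 members and grey points the 4139 other genes with at least 20 counts in each, and dashed lines mark 2-fold. Most members lie between 0 and the lower dashed line, with a median of -0.24; the member farthest to the right is 5_8S_rRNA at -0.43, and the grey points of zgc:158463 and si:dkey-153m14.1 lie farther right.

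By class, summed members gave a ratio of mutant over wild-type label of 0.743 (0.736 to 0.750) for 5_8S_rRNA and 0.686 (0.665 to 0.707) for clone-named features. The ratio was 0.831 (0.812 to 0.851) for symbol-less features and 0.811 (0.755 to 0.871) for histone symbols. These 4 classes were below equality by more than counting error, though by less than 2-fold. The RNAs rmrp and U2 were not distinguishable from equality at this depth, at 1.04 (0.899 to 1.20) for rmrp and 0.961 (0.789 to 1.17) for U2. The leading pair of genes outside the list, zgc:158463 and si:dkey-153m14.1, had a ratio of 0.862 (0.860 to 0.864), so ratios below equality were not particular to the members. Within the histone class the genes differed, since hist1h2a2 had a ratio of 1.54 (1.14 to 2.09) and hist1h2a4 of 0.556 (0.398 to 0.771), while h1l1 had 0.712 (0.647 to 0.783). No histone member reached 2-fold.

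In RNA-seq the members were few but not absent. Of the 152, 11 had 0 counts in both libraries, 110 had at most 5 in both and 9 had over 10 in at least 1, and the median was 2 counts in mutant and 2 in wild-type embryos. Mutant counts were lower than wild-type counts for 86 members, higher for 38 and equal for 28. The sums were 371 in mutant and 550 in wild-type embryos, a ratio of TMM-scaled sums of 0.673 (0.589 to 0.770). The rule used these same RNA-seq counts, so the ratio is a description and not independent of the choice of members. Its cap on raw counts was the same in both libraries, although the wild-type library was deeper. The ratio also moved with the cap, to 0.761 for an RNA-seq maximum of 5, 0.685 for 10 and 0.853 for 50. For the 8020 other genes with a count in RNA-seq and at most 20 in each library, mutant counts were lower for 3462 and higher for 3662, and the ratio of sums was 1.01 (0.992 to 1.02). The 144 members with a histone symbol, a clone name or no symbol are nearly the whole list. They summed to 318 and 499 counts, for a ratio of TMM-scaled sums of 0.636 (0.551 to 0.734). Their ratio between the RIP-seq libraries was 0.778 (0.764 to 0.792), on the same side of equality.

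**Figure D5:**
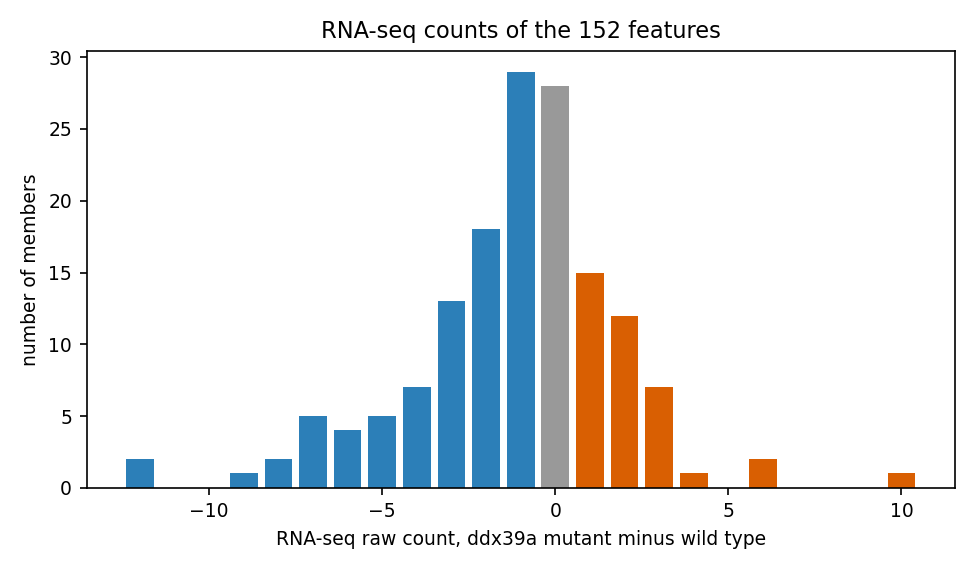
Number of members (vertical axis) by the difference of raw RNA-seq counts, ddx39a mutant minus wild type (horizontal axis); blue bars are members lower in the mutant, orange bars higher and grey equal. The differences run from -12 to 10, with 86 members on the lower side and 38 on the higher side.

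Only 13 members reached a CPM of 1 in an RNA-seq library and could be compared one by one. Of these 1 was called higher and 2 lower in mutant embryos, and 2.16% of all 18800 genes compared were called higher and 2.6% lower. The called members reached that CPM in 1 of the libraries alone, so they had to differ to be compared, and nothing is read from their number against those shares. The higher one was rrp7a, with 15 counts in mutant and 5 in wild-type embryos, for a ratio of 2.99 (1.03 to 10.5). The lower ones were zgc:163061, with 3 and 15 counts and a ratio of 0.200 (0.0371 to 0.706), and ENSDARG00000076766, with 2 and 14 counts and a ratio of 0.143 (0.0157 to 0.621). These rest on 20 counts or fewer per gene, and the intervals are wide.

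More deeply counted histone genes allow the RNA-seq direction to be read outside the members. The 15 histone symbols outside the replacement list, members included, summed to 4292 counts in mutant and 6442 in wild-type RNA-seq, a ratio of 0.665 (0.640 to 0.691). For the 10 replacement histones the ratio was 0.900 (0.886 to 0.915). The first sum was mostly 2 genes and says little on the others. The linker histone histh1l1 had 2017 and 3454 counts, a ratio of 0.583. The gene h2ax1, not on the replacement list although h2ax was, had 1918 and 2327, a ratio of 0.823 (0.774 to 0.875). The 8 members added 17 and 31 counts. Of 15 histone symbols compared in RNA-seq, 0 were called higher and 2 lower, beside 2.16% higher and 2.6% lower among all genes compared. The lower ones were h2ax with 70 and 251 counts (0.279, 0.211 to 0.364) and hist2h3c with 9 and 40 (0.225, 0.0959 to 0.470). Of these, hist2h3c reached a CPM of 1 in wild-type embryos alone. The median log2 ratio of the 15 symbols was -0.28 against -0.0022 over all genes. In RIP-seq 21 histone symbols were compared, of which 0 were called higher and 2 lower, beside 8.37% higher and 5.3% lower among all genes compared. The lower ones were H2AZ2 with 35 and 62 counts and hist2h2l with 10 and 22. The median of the 21 symbols was -0.27, against -0.06 over all genes compared.

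Markers of several cell types also had lower RNA-seq counts in the mutant library. Of the 18 markers, 13 had a ratio of mutant over wild type below 1 and 5 above, and 0 were called higher and 4 lower (myhz1.3, hbae1.1, crybb1l2 and crygm2d10). Among all 18800 genes compared, 9729 had a log2 ratio below 0, and 2.16% were called higher and 2.6% lower. The called hbae1.1 (3 and 51 counts) and crygm2d10 (2 and 44) reached a CPM of 1 in wild-type embryos alone. The summed counts gave a ratio of 0.534 (0.528 to 0.541) for muscle, with 42857 counts in mutant and 80079 in wild-type embryos, and of 0.541 (0.521 to 0.563) for erythroid cells, with 4023 and 7421. For lens the ratio was 0.309 (0.265 to 0.359), with 227 and 734 counts, and for notochord 0.758 (0.723 to 0.794), with 3049 and 4018. Most erythroid counts were of hbae3 (4020 and 7370) and most lens counts of crybb1l2 (225 and 690). Summed neuron, epidermis and yolk markers lay closer to equality, at 0.935 (0.899 to 0.973), 0.979 (0.972 to 0.986) and 1.01 (0.997 to 1.02). Single genes within the neuron, epidermis and notochord sets differed. Most epidermis counts were of krt4 (121390 and 127338, a ratio of 0.952), while krt5 had a ratio of 1.02 and cyt1 of 1.59 (1.53 to 1.66). Of the neuron markers, ELAVL3 had a ratio of 1.09, ELAVL4 of 0.928 and tuba1c of 0.795. Of the notochord markers, COL9A2 had a ratio of 0.653, col8a1a of 0.819 and ntd5 of 0.946 (0.851 to 1.052). The part of these cell types in the lower RNA-seq sums of the members and histone genes was not tested.

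Genes for protein partners of these RNA classes, and of the 7SK RNA that is not a member, were also looked up. They were not themselves counted only in RIP-seq, and no gene of the lists below was a member. Of 9 genes for histone mRNA processing found in the files, 7 were compared in each pair and 0 were called in either direction in RIP-seq or RNA-seq. Among them slbp, for the stem-loop binding protein, had 54 and 38 RIP-seq counts and 1660 and 1597 RNA-seq counts. Of 14 genes for ribosomal RNA synthesis and processing, 1 was called higher and 0 lower in RIP-seq, and 0 in RNA-seq, with median log2 ratios of -0.38 in RIP-seq and 0.22 in RNA-seq. The one called was POLR1B, an RNA polymerase I subunit, with 51 and 19 RIP-seq counts. The nucleolin gene ncl, the most abundant of that list, had 1515 and 1728 RIP-seq counts and 18641 and 15796 RNA-seq counts.

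Of 22 genes for Sm and U snRNP proteins, 21 were compared in RIP-seq, with 1 called higher (SNRPF) and 2 lower (smn1 and snrnp48), and all 22 in RNA-seq with 0 called. The median log2 ratio was 0.06 in RIP-seq and 0.06 in RNA-seq. The calls rest on few RIP-seq counts, and their intervals end close to equality. SNRPF had 28 and 10 counts (ratio 2.285, 1.077 to 5.272). The gene smn1 had 9 and 18 (0.408, 0.1615 to 0.9564), and snrnp48 had 3 and 10 (0.2448, 0.04329 to 0.9507). Of 10 genes for the 7SK particle, 0 were called higher and 1 lower in RIP-seq, the elongation factor gene ELL2 with 20 and 45 counts, and 0 were called in RNA-seq, with medians of 0.34 and -0.03. Called shares in these small lists can be read against the 8.37% higher and 5.3% lower among all genes in RIP-seq.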

How the data were processed

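The authors deposited a table of unnormalized counts by Ensembl gene ID for each library. The submitters' processing notes name HTSeq 0.6.1p1, TopHat2 2.2.1, Bowtie2 2.2.3, FastQC 0.11.5, bcl2fastq and the build GRCz10. Neither a strand setting nor an annotation release was given in the sources used here, so antisense and overlapping genes may share reads. The 5 HTSeq summary entries of each file were kept out of library sizes. Among uniquely aligned records, 79.2% and 82.1% in RIP-seq and 54.0% and 53.8% in RNA-seq (mutant before wild type) fell in no gene.

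The members and gene lists were chosen with earlier results of these data known. Classes came from symbols, and 44 of the 152 members have one. Neighbours came from a RefSeq gene table of another assembly. Ratios used TMM factors over each pair (edgeR 4.0.16, R 4.3.3), for genes that reached a CPM of 1 in a library of the pair, with 95% exact conditional binomial (Clopper-Pearson) intervals. Log2 ratios used a prior count of 0.5. The floor for a count of 0 was 3 counts per library. Without molecular identifiers, reads are not independent molecules. No p-values were computed, as each group had 1 library. The interval calculation was tested on simulated data.

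Genes named were the 10 most abundant members, all members of classes of up to 8, the 6 most abundant of larger classes, called members, those nearest the thresholds and abundant partner genes. Some values are not reported here. Histone genes outside the members, other small RNAs, RRP9 and clone groups were named after their values were seen. Alternatives were other thresholds, scalings (DESeq2 1.42.0 size factors, total counts), fold sizes, filters and classes. Python 3.11.15, pandas 2.3.3 and scipy 1.17.1 were used.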

Additional observations from a re-analysis of the deposited data

Results flagged for a closer look

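The HTSeq summary entries, which the comparisons do not use, held a signal in RIP-seq above the level in RNA-seq. Alignments to more than 1 place made up 89.46% of the records in RIP-seq with the mutant label and 91.84% with the wild-type label, against 8.42% in mutant and 11.16% in wild-type RNA-seq. A read can give several records, so these are not shares of reads. Their origin was not tested.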

How the results depend on the processing

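The number of members stayed between 110 and 171 for every threshold tried, including thresholds on CPM. No paired analysis was possible because each group has 1 library, and for the same reason no replicate could be left out. Member shares of RIP-seq gene counts (mutant label before wild-type label) were 4.991% and 6.208% for a RIP-seq minimum of 50 counts, 4.952% and 6.151% for an RNA-seq maximum of 10, 4.67% and 5.817% for a maximum of 5, 5.133% and 6.355% for a maximum of 50, and 13.81% and 19.98% when the leading pair of other genes was taken out of the total. With that total the class shares were 10.81% and 15.82% for ribosomal RNA, 0.02742% and 0.03101% for U2, 0.05375% and 0.05635% for rmrp, 0.007191% and 0.008606% for snoRNA, 0.1865% and 0.2501% for histones, 0.9112% and 1.444% for clone names, 1.792% and 2.344% for features with no symbol, and 0.01974% and 0.019% for other named genes, since the total shrank. When RefSeq gene types replaced symbols where one was given, 0% and 0% stayed under histones, 0.1598% and 0.2166% under clone names and 0.004985% and 0.00351% under other named genes, since the genes placed were all protein-coding there. Members called higher with the mutant label numbered 0 for an RNA-seq maximum of 5, for a 4-fold size and for a whole interval beyond 2-fold. Members called lower numbered 8 for a RIP-seq minimum of 10, 3 for a minimum of 50, and 0 for a 4-fold size and for a whole interval beyond 2-fold. Chosen after seeing the data, other scalings and thresholds gave a ratio of summed RNA-seq counts, mutant over wild type, of 0.6745 to 0.8528, and a median log2 RIP-seq ratio of -0.2756 to -0.1377, all in the same direction. RNA-seq counts of 0 to 18 per member limit what can be read per gene.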
